A study of Homo sapiens with 12 samples.

Results

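The 36 genes described here encode the glucose transporters, the enzymes of glycolysis and of lactate handling, regulators of glycolytic flux, and further genes that low oxygen is known to induce, together with HIF1A itself. They were a given list of gene symbols, and all 36 were matched by symbol to an Ensembl identifier among the 60664 identifiers of the deposited table, of which 60447 had a symbol. Their levels were measured by RNA sequencing in 2 hepatoma cell lines, MHCC-97H and Huh-7, in 12 libraries. The groups were MHCC-97H with si-CENPU, MHCC-97H with si-NC, Huh-7 with si-CENPU and Huh-7 with si-NC, with 3 libraries in each. si-CENPU is a small interfering RNA against CENPU, a subunit of the inner kinetochore, and si-NC is the control small interfering RNA. All cells were kept in DMEM with serum and antibiotics, no label names low oxygen as a treatment, and the labels used here state no siRNA sequence, dose or time after transfection. Each line stands for 1 tumour, and the labels do not tell separate cultures from repeat libraries, so that the replicate spread behind every p-value may be purely technical. Values are TPM (transcript abundance per length), which scale each library to a fixed total, so that sequencing depth is unknown and an exact 0 is given only as listed at 0.

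Glycolysis splits glucose into pyruvate. Glucose enters through transporters of the SLC2A family, hexokinase traps it as a phosphate ester, phosphofructokinase commits it to the pathway, and the lower enzymes from GAPDH to pyruvate kinase harvest ATP. Lactate dehydrogenase then interconverts pyruvate and lactate, and monocarboxylate transporters carry lactate across the membrane. HIF1A encodes the oxygen-labile alpha subunit of hypoxia-inducible factor, whose protein is controlled mainly by degradation, and the factor binds short elements with the core ACGTG or GCGTG near its target genes. Normal hepatocytes rely on liver isoforms such as SLC2A2, PFKL, and PKLR, whereas many liver tumours carry more HK2, PKM and LDHA.

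The sequence before the start site was available from RefSeq on GRCh38.p14 for 31 of the 36 genes, as the 250 bases upstream of 1 annotated start per gene. The core ACGTG, searched on both strands, was found in 13 of these 31 windows, against 18.7% of 27305 RefSeq windows of the same length. The core GCGTG was found in 10 of 31, against 31.9% of all windows, and at least 1 of the cores in 19 of 31, against 43.1%. The windows of the 31 genes held a median of 22 CG pairs, against 11 over all windows, and both cores contain a CG. A run of CACGTG is counted once on each strand, and a match is only a match of letters. The upstream stretches of 5 members that the comparisons turn on follow, 5′ to 3′ on the strand of the gene, cut to the longest run free of GENCODE release 29 exons, with matches to either core in capitals. LDHA (chr11:18394313-18394387, plus strand) and PGK1 (chrX:78103998-78104173, plus strand) were higher in MHCC-97H than in Huh-7 and carried matches. GAPDH (chr12:6535142-6535263, plus strand) carried matches and was called higher on the deposited scale but not under trimmed-mean scaling. LDHB (chr12:21657972-21658092, minus strand) differed most between the lines and its whole window held no match. BNIP3 (chr10:131982014-131982173, minus strand) held 6 matches and did not differ between the lines past the threshold. The 5 are examples. The window of ALDOC, the only member called lower in MHCC-97H on the deposited scale, held 3 matches to ACGTG and 2 to GCGTG. Among other members higher by at least 1 log2 unit in both comparisons, GPI, ENO2, ADM and HIF1A held matches. SLC2A1, HK1, PFKM, PFKP, PGAM1, PKM and SLC16A3 held none. SLC2A3, SLC16A1 and BNIP3L were higher by that much too but had no window to search, and neither had NDRG1 and VEGFA. A link between matches and the line difference was not tested.
LDHA: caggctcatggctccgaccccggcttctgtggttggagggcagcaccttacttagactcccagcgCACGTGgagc
PGK1: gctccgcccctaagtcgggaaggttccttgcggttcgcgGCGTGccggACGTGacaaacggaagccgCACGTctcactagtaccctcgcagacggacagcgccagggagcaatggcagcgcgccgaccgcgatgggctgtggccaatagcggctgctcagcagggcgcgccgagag
GAPDH: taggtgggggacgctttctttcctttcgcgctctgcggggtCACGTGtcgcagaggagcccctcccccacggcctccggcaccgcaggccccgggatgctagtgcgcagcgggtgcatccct
LDHB: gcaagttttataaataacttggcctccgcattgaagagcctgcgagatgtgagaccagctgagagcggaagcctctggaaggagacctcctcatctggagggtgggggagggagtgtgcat
BNIP3: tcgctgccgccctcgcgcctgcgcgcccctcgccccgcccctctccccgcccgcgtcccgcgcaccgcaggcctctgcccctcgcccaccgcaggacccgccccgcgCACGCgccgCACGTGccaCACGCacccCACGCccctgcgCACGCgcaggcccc

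The targeted gene was checked first. CENPU was listed at 0.22, 0.45 and 0.24 TPM in MHCC-97H with si-CENPU, against 1.17, 0.83 and 0.89 TPM with si-NC. It was listed at 0.17, 0.11 and 0.45 TPM in Huh-7 with si-CENPU, against 0.56, 0.84 and 0.53 TPM with si-NC. The groups did not overlap in either line, and the exact two-sided permutation p was 0.1 in each, the smallest that 3 against 3 allows. The 9 hepatocyte markers, albumin among them, summed to 0.68 to 1.71 TPM in MHCC-97H and to 6652 to 7575 TPM in Huh-7. MHCC-97H, labelled as hepatoma cells like Huh-7, thus lacked these markers, and their part in the differences between the lines was not tested. The markers of bile duct cells were split, with 1 of 4 tested higher and 3 lower in MHCC-97H with either siRNA. The keratin KRT7 lay between 510 and 594 TPM in MHCC-97H and between 0.04 and 0.44 TPM in Huh-7, while the keratin KRT19 lay between 0.07 and 0.46 TPM in MHCC-97H and between 181 and 212 TPM in Huh-7. SOX9 and EPCAM were the others lower in MHCC-97H. Replicate 1 of Huh-7 si-NC was least like the other Huh-7 libraries (mean correlation 0.965, against 0.975 to 0.978).

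Levels within a library spanned a wide range. GAPDH, which oxidises glyceraldehyde phosphate, was the most abundant member in every library and alone made up 63.2% to 71.1% of the summed TPM of the 36 genes. The 36 genes together took 1.46% to 1.67% of all TPM in MHCC-97H and 0.975% to 1.15% in Huh-7. TPI1, ALDOA and ENO1 followed GAPDH in all 4 groups. In MHCC-97H with si-CENPU the order ran GAPDH, TPI1 and ALDOA, with TPI1 averaging 1344 ± 103 TPM and ALDOA 1291 ± 71.8 TPM (SD, n = 3 each), and the libraries of these neighbours overlapped. In Huh-7 with si-CENPU the order was GAPDH, ALDOA and TPI1, with ALDOA averaging 1181 ± 28.4 TPM and TPI1 1023 ± 83.4 TPM (SD, n = 3 each), and every ALDOA value lay above every TPI1 value. At the low end SLC2A2, the liver glucose transporter, and PKLR, the liver pyruvate kinase, stayed under 0.5 TPM in all 12 libraries. Genes averaging at least 1 TPM over the 12 libraries were tested, 11088 in all, and 31 of the 36 members passed that filter. SLC2A2, PKLR, PDK1, CA9 and EGLN3 did not pass. A member listed near 0 in 1 line can pass only through the other, and 23 members averaged at least 1 TPM in each line. Copies of these genes add uncertainty, because 156 pseudogenes in the table are named after 16 of the members, and those of GAPDH summed to 29.2 to 46.7 TPM in MHCC-97H and 6.91 to 12.6 TPM in Huh-7.

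**Figure D1:**
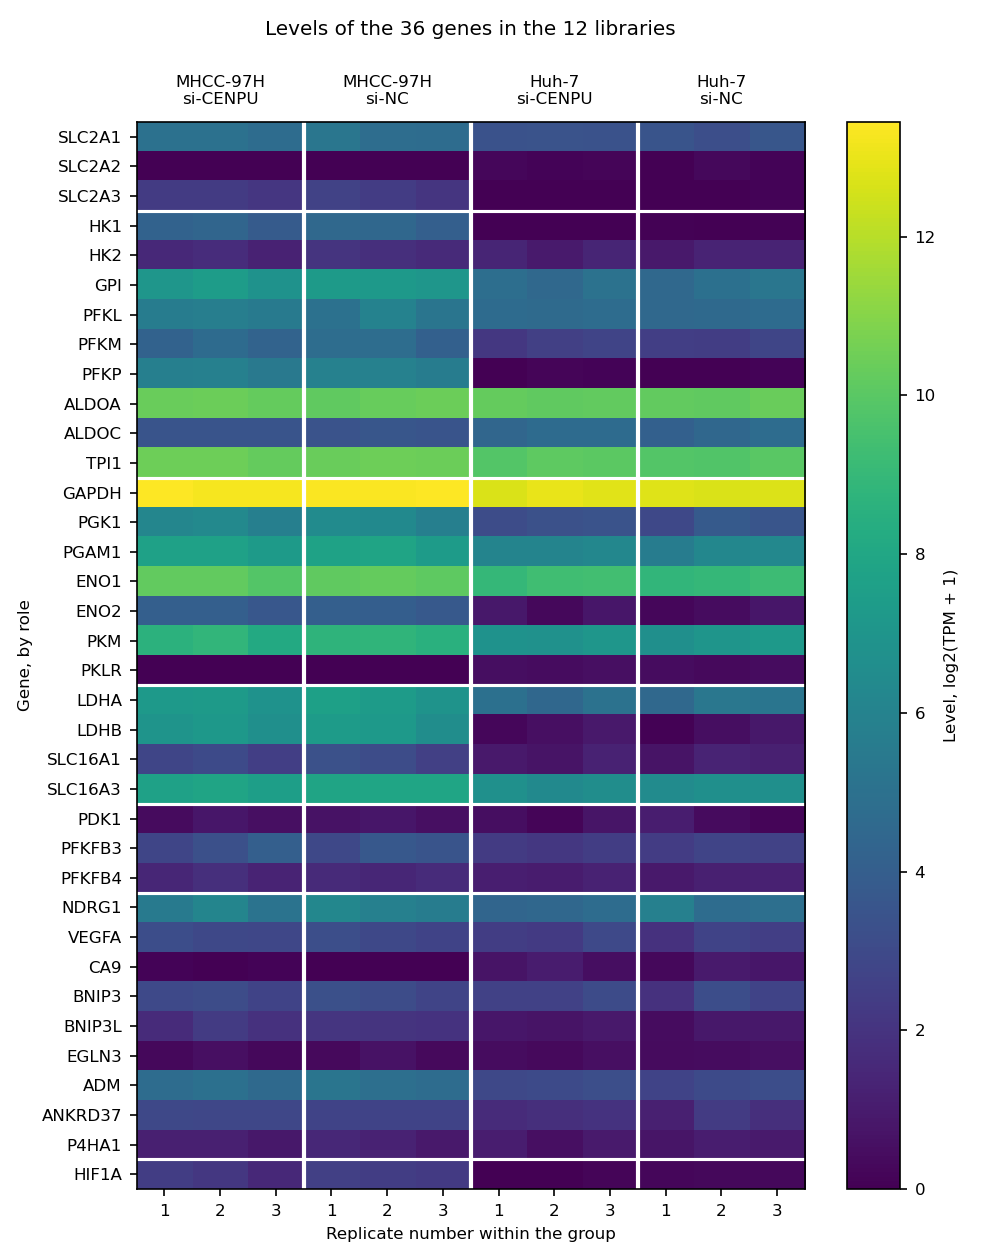
Level of each of the 36 genes (rows, by role) in each of the 12 libraries (columns, 3 per group), as log2(TPM + 1) on a linear colour scale. GAPDH is brightest throughout, and HK1, PFKP, ENO2, LDHB and HIF1A are near 0 in Huh-7 and above 0 in MHCC-97H.

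After si-CENPU no member passed the test in either line. In MHCC-97H 0 of 31 members had a limma adjusted p below 0.05, where 0.00902% of all tested genes did, and 0 had an unadjusted p below 0.05, against 3.42% of all genes. In Huh-7 the counts were again 0 of 31 called, against 0.00902%, and 0 at an unadjusted p below 0.05, against 4.57%. With calls this rare among all genes, a count of 0 among 31 is near the background. For members well above 1 TPM the intervals say more than the counts. In MHCC-97H the 95% interval of all 31 differences lay within 1 log2 unit of 0, and in Huh-7 that held for 30, NDRG1 being the exception. Intervals were within 0.5 log2 units for 13 members in MHCC-97H and for 14 in Huh-7. All differences are in log2(TPM + 1), where the added 1 shrinks those of low genes. On this scale a fall from under 1 TPM cannot reach 1 log2 unit, as for SLC2A3, HK1, PFKP, ENO2, LDHB and HIF1A in Huh-7. CENPU itself differed by only -0.59 in MHCC-97H and -0.41 in Huh-7. HIF1A in Huh-7, at -0.20 in the main fit, reached -1.09 among the alternatives run.

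**Figure D2:**
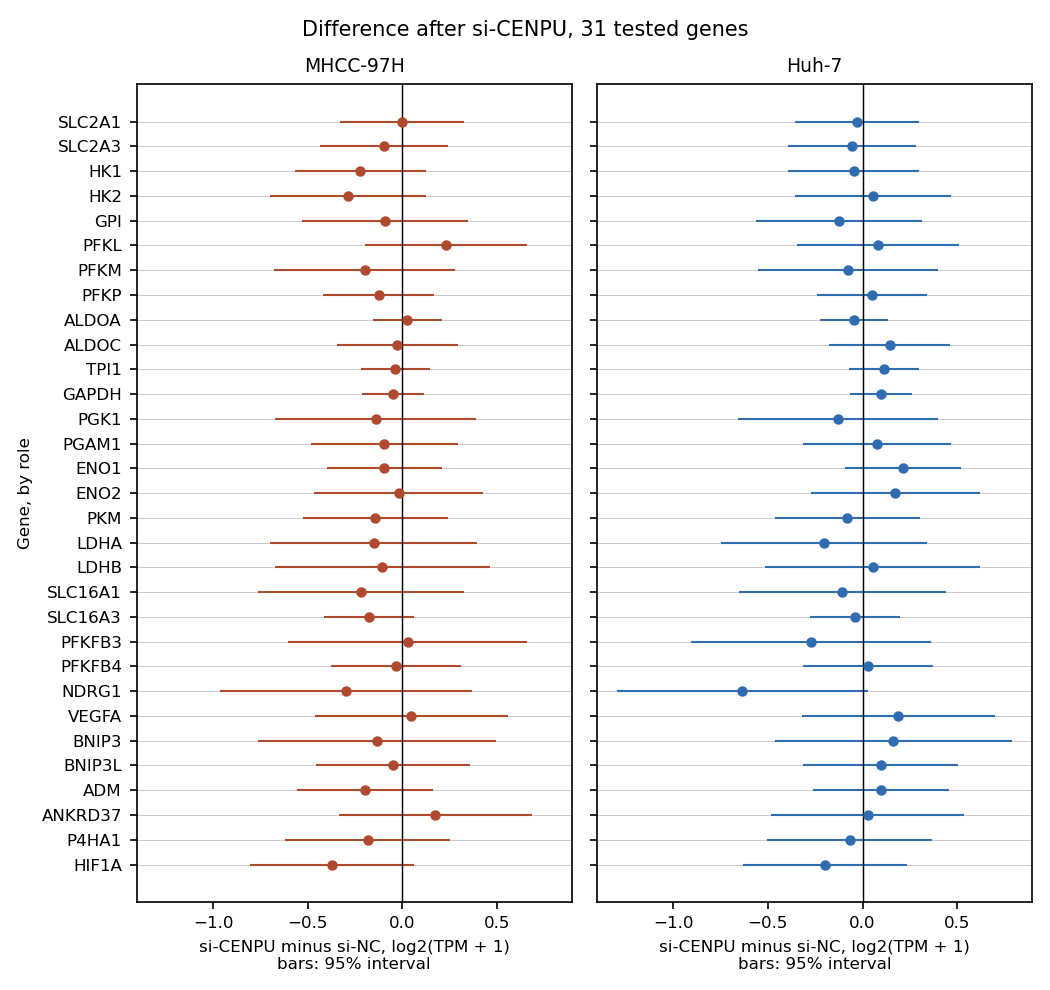
Difference of si-CENPU minus si-NC in log2(TPM + 1) for the 31 tested genes in MHCC-97H (left) and Huh-7 (right), with points for the limma estimate and bars for its 95% interval. Every bar crosses 0, and NDRG1 in Huh-7 reaches farthest, to -1.30.

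Among the glucose transporters, SLC2A3, a high-affinity carrier, gave 4.08, 4.11 and 3.41 TPM in MHCC-97H with si-CENPU, against 5.31, 4.24 and 3.22 TPM with si-NC. The groups overlapped, with the si-NC libraries both above and below the si-CENPU ones, and the log2 difference was -0.10 (SE 0.15, limma adjusted p = 1). In Huh-7 SLC2A3 was listed at 0.01, 0 and 0 TPM with si-CENPU and at 0.03, 0 and 0.1 TPM with si-NC, too low for a difference to be read. SLC2A1, the widespread basal carrier, differed by 0.00 in MHCC-97H, with a 95% interval of -0.33 to 0.33, and by -0.03 in Huh-7, with an interval of -0.36 to 0.30.

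The upper enzymes gave log2 differences between -0.29 and 0.23 in MHCC-97H and between -0.12 and 0.14 in Huh-7, with 2 of 9 and 5 of 9 above 0. HK2, the inducible hexokinase, showed the most negative value in MHCC-97H, with 1.95, 2.23 and 1.43 TPM after si-CENPU, against 3.05, 2.47 and 1.99 TPM with si-NC. These ranges overlapped, and the difference of -0.29 (SE 0.19) had an unadjusted limma p of 0.153 and an adjusted p of 1. TPI1, which interconverts the triose phosphates, had 928, 1085 and 1056 TPM in Huh-7 with si-CENPU, against 918, 903 and 1014 TPM with si-NC, a difference of 0.11 (SE 0.08). ALDOC, an aldolase isoform known from brain, had 20.4, 24.8 and 25.0 TPM in Huh-7 with si-CENPU, against 16.5, 21.3 and 26.1 TPM with si-NC. Its difference of 0.14 (SE 0.15) turned to -0.02 without Huh-7 si-NC replicate 1. HK1 did not overlap between the Huh-7 groups, but its values there were 0, 0.02 and 0 TPM with si-CENPU and 0.05, 0.03 and 0.04 TPM with si-NC.

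None of the tested lower enzymes was called after si-CENPU in either line. All 6 tested members lay below 0 in MHCC-97H, with a median of -0.09, and 4 of 6 lay above 0 in Huh-7, with a median of 0.09. ENO1, the main enolase, had 496, 648 and 652 TPM in Huh-7 with si-CENPU, against 456, 497 and 591 TPM with si-NC. Its groups overlapped, and the difference was 0.21 (SE 0.14, limma adjusted p = 1). PKM, the pyruvate kinase of most proliferating cells, had 403, 456 and 290 TPM in MHCC-97H with si-CENPU, against 435, 445 and 371 TPM with si-NC. The low value was that of replicate 3, and without it the difference of -0.14 (SE 0.17) became 0.04. GAPDH differed by -0.05 in MHCC-97H, with an interval of -0.21 to 0.12, and by 0.10 in Huh-7, with an interval of -0.06 to 0.26.

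Of the 4 genes of lactate handling, all lay below 0 in MHCC-97H and 1 lay above 0 in Huh-7, and none was called. SLC16A3, the lactate exporter MCT4, had 206, 231 and 187 TPM in MHCC-97H with si-CENPU, against 228, 237 and 237 TPM with si-NC, a difference of -0.17 (SE 0.11, limma adjusted p = 1). SLC16A1, the transporter MCT1, had 6.11, 7.20 and 4.68 TPM in MHCC-97H with si-CENPU, against 9.13, 7.74 and 4.88 TPM with si-NC, a difference of -0.22 (SE 0.25). In both genes the ranges overlapped. LDHA, the dehydrogenase subunit that low oxygen induces, had 30.0, 21.2 and 32.8 TPM in Huh-7 with si-CENPU, against 22.5, 38.8 and 36.9 TPM with si-NC, a difference of -0.20 (SE 0.25), or -0.44 without si-NC replicate 1. Among the flux regulators, PFKFB3, whose product raises the level of a potent phosphofructokinase activator, had 4.08, 3.49 and 4.50 TPM in Huh-7 with si-CENPU, against 4.15, 5.86 and 5.28 TPM with si-NC. That difference was -0.27 (SE 0.29), and the highest si-CENPU value lay above the lowest si-NC value. PFKFB4, a related isoform, had 1.76, 2.5 and 1.55 TPM in MHCC-97H with si-CENPU, against 2.04, 1.73 and 2.18 TPM with si-NC. Its difference of -0.03 (SE 0.16) changed sign to 0.01 under trimmed-mean scaling and to 0.03 under quantile normalization.

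Among the hypoxia-induced genes outside glycolysis, NDRG1, a stress and differentiation gene, showed the largest difference of all members. In Huh-7 it had 20.0, 21.6 and 25.7 TPM with si-CENPU, against 56.8, 26.3 and 29.1 TPM with si-NC. The groups did not overlap, but the gap between the highest si-CENPU and the lowest si-NC library was small, and the highest value came from si-NC replicate 1, least like its line. The log2 difference was -0.64 (SE 0.30, 95% interval -1.30 to 0.03), with an unadjusted limma p of 0.0594 and an adjusted p of 1, and it was -0.30 without that library. In MHCC-97H NDRG1 had 46.1, 68.6 and 33.7 TPM with si-CENPU, against 72.5, 56.9 and 48.4 TPM with si-NC, and the difference of -0.30 (SE 0.30) came from overlapping groups. ADM, which encodes the vasodilator adrenomedullin, had 25.9, 29.9 and 23.0 TPM in MHCC-97H with si-CENPU, against 36.4, 28.8 and 25.9 TPM with si-NC, a difference of -0.20 (SE 0.16). ANKRD37, an ankyrin repeat gene, was the 1 member of MHCC-97H whose groups did not overlap, with 6.61, 6.31 and 6.28 TPM after si-CENPU and 5.62, 5.62 and 5.41 TPM with si-NC. It lay higher with si-CENPU by 0.18 (SE 0.23), where groups did not overlap for 6.95% of all genes, and higher so for 3.19%. In Huh-7 3 members did not overlap, HK1, NDRG1 and HIF1A, all with the lower values after si-CENPU, where 7.65% of all genes did not overlap and 3.86% did so with lower values.

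HIF1A had 4.41, 3.49 and 1.95 TPM in MHCC-97H with si-CENPU, against 4.93, 4.38 and 3.87 TPM with si-NC. The si-CENPU replicate 1 lay above the lowest 2 si-NC libraries, and the difference was -0.37 (SE 0.20), with an unadjusted limma p of 0.0859 and an adjusted p of 1. In Huh-7 it was listed at 0.03, 0 and 0.13 TPM with si-CENPU and at 0.18, 0.20 and 0.24 TPM with si-NC, a difference of -0.20 (SE 0.20). The 5 members under the filter gave no separation between si-CENPU and si-NC in either line, with exact two-sided permutation p-values of 0.2 to 1 and adjusted values of 0.533 to 1 over 24 such tests. CA9, the membrane carbonic anhydrase, was listed at 0.63, 1.03 and 0.40 TPM in Huh-7 with si-CENPU and at 0.21, 0.97 and 0.78 TPM with si-NC. EGLN3, an oxygen-sensing prolyl hydroxylase, and PDK1, which restrains pyruvate dehydrogenase, ran from 0.14 to 1.13 TPM over all libraries.

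**Figure D3:**
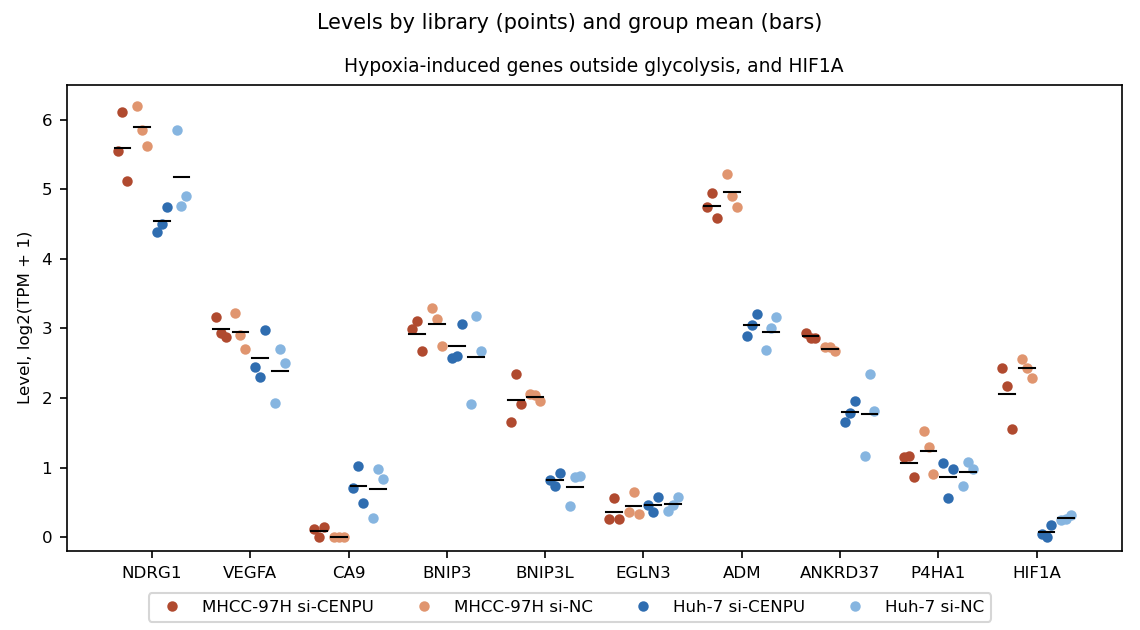
Level in log2(TPM + 1) of the hypoxia-induced genes outside glycolysis and of HIF1A, with 1 point per library and a bar for the mean of 3. The NDRG1 point far above its group in Huh-7 si-NC is replicate 1, at 56.8 TPM, and every CA9 point of MHCC-97H lies below every one of Huh-7.

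The sign of the small differences leaned one way in MHCC-97H. There 25 of 31 members lay below 0, with a median of -0.10, but so did 6954 of all 11088 tested genes, with a median of -0.05. The counts of signs by role given above for MHCC-97H are read against that share. Trimmed-mean scaling left 19 of 31 members and 5360 of all genes below 0, and quantile normalization left 21 members and 5583 of all genes. In Huh-7 16 of 31 members lay above 0, with a median of 0.03, against 5803 of all genes, with a median of 0.01. Single libraries moved most members together. MHCC-97H si-CENPU replicate 3 was the lowest of its group for 27 of 31 members and for 63.9% of all tested genes, and MHCC-97H si-NC replicate 3 for 23 of 31 and for 59.8% of all genes. Huh-7 si-NC replicate 1 was the lowest for 23 of 31 members and for 69.4% of all genes. The deviation of MHCC-97H si-NC replicate 1 from its line mean had a Spearman rho of -0.516 with transcript GC content across genes, and that of si-NC replicate 3 a rho of 0.456; the part of these patterns in the members' differences was not tested beyond the GC-corrected fit, in which 0 members were called in either line.

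The response to si-CENPU was compared between the lines by the difference of the differences, MHCC-97H minus Huh-7. None of the 31 members was called, where 0.00902% of all genes were, and 0 had an unadjusted limma p below 0.05, against 3.45% of all genes. The 95% interval lay within 1 log2 unit for 28 members and reached farther for PFKFB3, NDRG1 and BNIP3. For NDRG1 the value was 0.34, with an interval of -0.60 to 1.28. Averaged over both lines, an estimate added after the data were seen, 0 of 31 members were called, where 0.00902% of all genes were, 0 had an unadjusted p below 0.05, against 4.06%, and all 31 intervals lay within 1 log2 unit. NDRG1 again lay lowest, at -0.47 (SE 0.21), with an unadjusted limma p of 0.052 and an adjusted p of 0.999.

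The lines themselves differed widely in these genes, whichever siRNA they had received. In the si-CENPU libraries 25 of 31 members were higher in MHCC-97H than in Huh-7 and 1, ALDOC, was lower, where 46.2% of all genes were higher and 23.9% lower. In the si-NC libraries 26 members were higher and 1, again ALDOC, was lower, where 50.1% of all genes were higher and 22.9% lower. A value at or near 0 in a table without counts can be a failed estimate as well as a low level. Which of these holds for HK1, PFKP, ENO2, LDHB and HIF1A in Huh-7 was not tested, and the size of their differences and shares between the lines rests on it. The comparisons with si-CENPU and with si-NC share no library, and without Huh-7 si-NC replicate 1 the si-NC count was 23 higher and 1 lower. The median log2 difference of the members was 1.15 with si-CENPU and 1.29 with si-NC, against 0.40 and 0.49 for all genes. Trimmed-mean scaling moved the all-gene median to 0.00 in both, and then 18 members were higher and 1 lower with si-CENPU, and 18 higher and 2 lower with si-NC. Of all 11088 tested genes, that scaling called 3653 higher and 3894 lower with si-CENPU, and 3742 higher and 3881 lower with si-NC. Under it ALDOA, TPI1, GAPDH, BNIP3 and P4HA1 changed direction in both comparisons, and HK2 and VEGFA with si-CENPU. The share of higher among called genes of the whole table went with it, at 65.9% as deposited and 48.4% under trimmed-mean scaling with si-CENPU, and at 68.6% and 49.1% with si-NC. Quantile normalization gave 54.6% with si-CENPU and 55.2% with si-NC. Relative to the median of all genes, 25 members lay above it with si-CENPU and 26 with si-NC. Among the 23 members averaging at least 1 TPM in each line, 18 were higher and 1 lower with si-CENPU, where 44.1% of 8005 such genes were higher, and 19 were higher and 1 lower with si-NC, where 48.8% were. Groups without overlap between the lines were common. With si-CENPU this held for 5465 of 11088 genes higher and 2814 lower, and for 26 members higher and 1 lower. With si-NC it held for 5503 genes higher and 2595 lower, and for 25 members higher and 1 lower. Each statement below that the lines did not overlap is read against these counts.

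**Figure D4:**
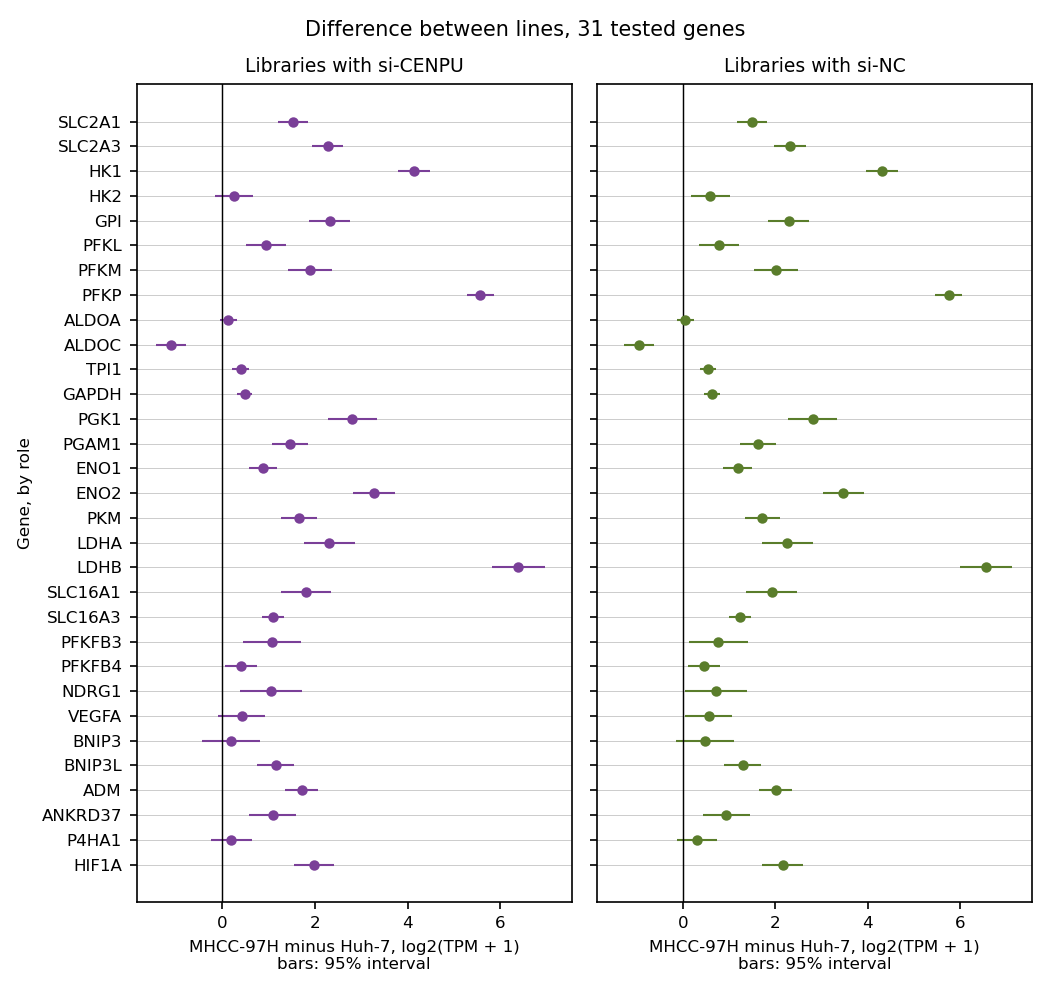
Difference of MHCC-97H minus Huh-7 in log2(TPM + 1) for the 31 tested genes in the si-CENPU libraries (left) and the si-NC libraries (right), with points for the limma estimate and bars for its 95% interval. LDHB, PFKP and HK1 lie farthest to the right in both panels, and ALDOC is left of 0 in both.

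Glucose entry differed first. SLC2A1 (chr1:42925375-42959176 on GRCh38, minus strand) had 31.6, 31.7 and 26.1 TPM in MHCC-97H with si-CENPU, against 9.54, 9.80 and 9.65 TPM in Huh-7 with si-CENPU. With si-NC it had 37.2, 26.9 and 26.1 TPM in MHCC-97H, against 10.2, 8.36 and 11.3 TPM in Huh-7. No library of MHCC-97H fell among those of Huh-7, and the log2 differences were 1.52 with si-CENPU and 1.5 with si-NC (SE 0.15 each, limma adjusted p = 2.89e-06 and 3.4e-06). SLC2A3 lay between 3.22 and 5.31 TPM in MHCC-97H and between 0 and 0.1 TPM in Huh-7. SLC2A2 went the other way at very low values, listed at 0 in all 6 MHCC-97H libraries and at 0 to 0.21 TPM in Huh-7. Among transporters of the same family outside the 36 genes, SLC2A8, known from intracellular membranes, lay between 40.1 and 42.3 TPM in MHCC-97H and between 196 and 242 TPM in Huh-7. SLC2A6 lay between 11.4 and 16.9 TPM in MHCC-97H and between 23.2 and 27.7 TPM in Huh-7. Both were called lower in MHCC-97H with either siRNA.

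The isoenzymes of the irreversible first steps were distributed unequally. HK1 (chr10:69269984-69401884, plus strand), the constitutive hexokinase, had 17.7, 19.5 and 13.5 TPM in MHCC-97H with si-CENPU and 22.6, 21.1 and 15.9 TPM with si-NC. In Huh-7 it was listed at 0, 0.02 and 0 TPM with si-CENPU and at 0.05, 0.03 and 0.04 TPM with si-NC. HK2 was far closer, between 1.43 and 3.05 TPM in MHCC-97H and between 0.91 and 1.67 TPM in Huh-7, and was called with si-NC (0.60, limma adjusted p = 0.0132) and not with si-CENPU (0.26, limma adjusted p = 0.239), while the si-NC call was lost under trimmed-mean scaling and quantile normalization, and both turned its si-CENPU difference below 0. HK1 thereby made up 90.1% ± 0.329 of the summed HK1 and HK2 TPM in MHCC-97H with si-CENPU and 88.8% ± 0.725 with si-NC (SD, n = 3 each). In Huh-7, with HK1 listed at or near 0, its share was 0%, 2.02% and 0% in the si-CENPU libraries and 5.21%, 1.96% and 2.53% in the si-NC libraries. These shares leave out HKDC1, a further hexokinase, which lay between 9.33 and 18.25 TPM in MHCC-97H, above HK2. In Huh-7 HKDC1 lay between 0.01 and 0.27 TPM. The shares are thus not those of HK1 among all hexokinase genes, which were not computed. PFKP (chr10:3066333-3137712, plus strand), the platelet-type phosphofructokinase, had 54.4, 57.5 and 41.6 TPM in MHCC-97H with si-CENPU and 58.3, 58.5 and 49.7 TPM with si-NC. In Huh-7 it was listed at 0.03, 0.13 and 0.09 TPM with si-CENPU and at 0.02, 0.02 and 0.10 TPM with si-NC. The liver-type PFKL lay between 31.9 and 62.3 TPM in MHCC-97H and between 22.6 and 25.7 TPM in Huh-7, so that PFKP made up 42.4% ± 2.47 of phosphofructokinase TPM in MHCC-97H with si-CENPU and 45.9% ± 5.57 with si-NC, against 0.278% ± 0.169 and 0.156% ± 0.144 in the matching Huh-7 groups (SD, n = 3 each). The muscle-type PFKM had 17.7, 24.8 and 18.4 TPM in MHCC-97H with si-CENPU, against 3.54, 4.83 and 5.82 TPM in Huh-7. With si-NC PFKM had 27.2, 27.2 and 16.7 TPM in MHCC-97H, against 4.58, 4.50 and 5.91 TPM in Huh-7. The lines did not overlap for PFKM or PFKL, as for most tested genes. PFKL was not called under trimmed-mean scaling with either siRNA, or under quantile normalization with si-NC.

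**Figure D5:**
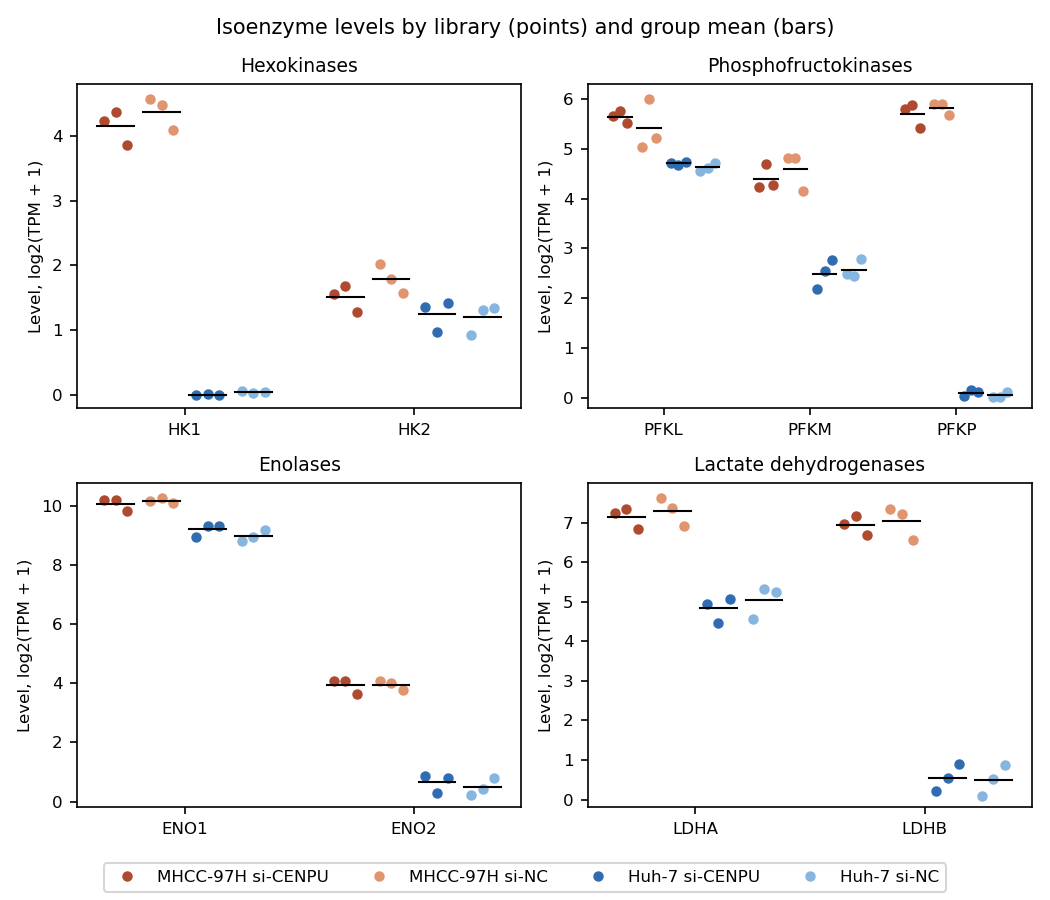
Level in log2(TPM + 1) of hexokinase, phosphofructokinase, enolase and lactate dehydrogenase genes, with 1 point per library and a bar for the mean of 3. HK1, PFKP, ENO2 and LDHB separate the lines, with all Huh-7 libraries under 1 TPM, while HK2 and PFKL lie closer together.

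GPI, the phosphoglucose isomerase, had 135, 173 and 115 TPM in MHCC-97H with si-CENPU, against 27.5, 22.3 and 32.1 TPM in Huh-7. With si-NC GPI had 160, 153 and 132 TPM in MHCC-97H, against 22.6, 30.6 and 37.2 TPM in Huh-7. The lowest MHCC-97H library lay far above the highest of Huh-7. The aldolases ran apart. ALDOA, the aldolase of muscle and of most tumours, was near equal as deposited, between 1156 and 1375 TPM in MHCC-97H and between 1140 and 1342 TPM in Huh-7. Trimmed-mean scaling called ALDOA lower in MHCC-97H with si-NC, and the GC correction called it higher with si-CENPU. ALDOC (chr17:28573115-28577264, minus strand) had 10.3, 10.3 and 10.1 TPM in MHCC-97H with si-CENPU, against 20.4, 24.8 and 25.0 TPM in Huh-7. With si-NC it had 9.93, 11.2 and 10.3 TPM in MHCC-97H, against 16.5, 21.3 and 26.1 TPM in Huh-7. It was lower in MHCC-97H by log2 differences of -1.11 with si-CENPU and -0.94 with si-NC (SE 0.15 each, limma adjusted p = 3.73e-05 and 0.000137), and by more, -1.61 and -1.54, under trimmed-mean scaling. TPI1 was called higher in MHCC-97H, at 0.39 with si-CENPU and 0.54 with si-NC, but lay below 0 under trimmed-mean scaling in both.

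In the lower pathway all 6 tested enzymes were called higher in MHCC-97H on the deposited scale, and all but GAPDH in both comparisons and ENO1 with si-CENPU under trimmed-mean scaling. PGK1 (chrX:77910739-78129296, plus strand), the first ATP-forming enzyme, had 72.2, 79.2 and 54.2 TPM in MHCC-97H with si-CENPU, against 7.79, 9.15 and 9.70 TPM in Huh-7. With si-NC it had 90.1, 82.7 and 55.8 TPM in MHCC-97H, against 6.64, 13.2 and 10.6 TPM in Huh-7. The log2 differences were 2.80 with si-CENPU and 2.81 with si-NC (SE 0.24 each, limma adjusted p = 9.43e-07 and 8.99e-07). ENO2, the enolase best known from neurons, had 15.8, 15.9 and 11.6 TPM in MHCC-97H with si-CENPU, against 0.84, 0.23 and 0.73 TPM in Huh-7. Its si-NC libraries gave 15.9, 15.1 and 12.6 TPM in MHCC-97H, against 0.16, 0.35 and 0.74 TPM in Huh-7. No library of one line fell among those of the other. PGAM1, a phosphoglycerate mutase, had 203, 207 and 160 TPM in MHCC-97H with si-CENPU, against 65.4, 65.4 and 73.7 TPM in Huh-7. With si-NC PGAM1 had 216, 228 and 166 TPM in MHCC-97H, against 48.6, 72.9 and 75.7 TPM in Huh-7. PKM, between 290 and 456 TPM in MHCC-97H, had 114, 111 and 133 TPM in Huh-7 with si-CENPU and 104, 127 and 152 TPM with si-NC, again with no overlap. ENO1 exceeded Huh-7 by 0.88 with si-CENPU and 1.18 with si-NC. GAPDH ran from 9925 to 11153 TPM in MHCC-97H and from 6686 to 8155 TPM in Huh-7, and its differences of 0.49 with si-CENPU and 0.63 with si-NC were both below 0 and not past the threshold under trimmed-mean scaling. PKLR was listed at 0 to 0.01 TPM in MHCC-97H and at 0.28 to 0.46 TPM in Huh-7, with an exact two-sided permutation p of 0.1 with either siRNA, the smallest possible.

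Lactate handling held the largest difference. LDHB (chr12:21635342-21757857, minus strand), the heart-type lactate dehydrogenase subunit, had 124, 143 and 102 TPM in MHCC-97H with si-CENPU, against 0.16, 0.45 and 0.86 TPM in Huh-7. With si-NC it had 163, 147 and 94.1 TPM in MHCC-97H, against 0.07, 0.43 and 0.83 TPM in Huh-7. Its log2 differences were 6.39 with si-CENPU and 6.55 with si-NC (SE 0.26 each, limma adjusted p = 1.1e-09 and 8.87e-10). LDHB passed the filter only through MHCC-97H, and these p-values do not tell a low level in Huh-7 from a failed estimate. LDHA (chr11:18394388-18408425, plus strand) had 151, 162 and 114 TPM in MHCC-97H with si-CENPU and 195, 164 and 119 TPM with si-NC, against 21.2 to 38.8 TPM in Huh-7, with differences of 2.31 and 2.26 in the same comparisons. LDHB accordingly made up 46.4% ± 1.09 of lactate dehydrogenase TPM in MHCC-97H with si-CENPU and 45.6% ± 1.63 with si-NC, against 1.72% ± 1.06 and 1.20% ± 0.951 in the matching Huh-7 groups (SD, n = 3 each). SLC16A3, between 187 and 237 TPM in MHCC-97H, had 108, 83.9 and 97.1 TPM in Huh-7 with si-CENPU and 90.3, 104 and 103 TPM with si-NC. SLC16A1, between 4.68 and 9.13 TPM in MHCC-97H, had 0.92, 0.62 and 1.48 TPM in Huh-7 with si-CENPU and 0.66, 1.53 and 1.29 TPM with si-NC. Neither transporter overlapped between the lines. The 2 tested flux regulators, PFKFB3 and PFKFB4, were called higher in MHCC-97H with either siRNA, but not under trimmed-mean scaling or quantile normalization. The si-NC call of PFKFB3 was also lost when rescaled without the most abundant genes.

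Of the 7 tested hypoxia-induced genes outside glycolysis, 4 were higher in MHCC-97H with si-CENPU and 4 with si-NC, and none was called lower. Over all genes 46.2% were higher with si-CENPU and 50.1% with si-NC, so these counts are near the background. Under trimmed-mean scaling 3 were higher with si-CENPU, namely ADM, BNIP3L and ANKRD37, and 2 with si-NC, ADM and BNIP3L. Of all 11088 tested genes, 3653 were higher with si-CENPU and 3742 with si-NC under that scaling. ADM had 25.9, 29.9 and 23.0 TPM in MHCC-97H with si-CENPU, against 6.45, 7.26 and 8.23 TPM in Huh-7. With si-NC it had 36.4, 28.8 and 25.9 TPM in MHCC-97H, against 5.46, 7.04 and 7.94 TPM in Huh-7. Its differences were 1.71 with si-CENPU and 2.01 with si-NC (SE 0.16 each). BNIP3L, a mitophagy receptor, had 2.14, 4.10 and 2.75 TPM in MHCC-97H with si-CENPU, against 0.76, 0.66 and 0.89 TPM in Huh-7. With si-NC BNIP3L had 3.15, 3.13 and 2.87 TPM in MHCC-97H, against 0.36, 0.82 and 0.83 TPM in Huh-7. The lines did not overlap for it. Its relative BNIP3 overlapped, between 5.42 and 8.79 TPM in MHCC-97H and between 2.75 and 8.04 TPM in Huh-7. VEGFA, the angiogenic growth factor, was called with si-NC (0.56, limma adjusted p = 0.0476) and not with si-CENPU (0.42, limma adjusted p = 0.128), and NDRG1 was called with si-CENPU (1.06, limma adjusted p = 0.00869) and not with si-NC (0.72, limma adjusted p = 0.0508). Both calls were lost under trimmed-mean scaling, and that of VEGFA also under quantile normalization and when rescaled without the most abundant genes. P4HA1, a collagen prolyl hydroxylase subunit, was called in neither. CA9 ran the other way, listed at 0.08, 0 and 0.10 TPM in MHCC-97H with si-CENPU and at 0 in the 3 si-NC libraries, against 0.21 to 1.03 TPM in Huh-7. HIF1A (chr14:61695513-61748259, plus strand) lay between 1.95 and 4.93 TPM in MHCC-97H and between 0 and 0.24 TPM in Huh-7, with differences of 1.98 with si-CENPU and 2.16 with si-NC (SE 0.20 each, limma adjusted p = 3.4e-06 and 1.62e-06). It too passed the filter only through MHCC-97H, with the same limit on its p-values as for LDHB.

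Genes around these pathways were not called after si-CENPU either. Of 13 tested HIF pathway components, 21 other hypoxia-induced genes, 6 other glycolytic isoforms and 6 other flux regulators, 0 were called in either line. With 0.00902% of all genes called in each line, these counts are near the background. In MHCC-97H 12 of the 13 HIF pathway components lay below 0, where 6954 of 11088 tested genes did and the median of all genes was -0.05. There 2 of them, 1 higher and 1 lower, had an unadjusted limma p below 0.05, against 3.42% of all genes. Between the lines the deposited-scale counts of these lists are read against 46.2% of all genes higher and 23.9% lower with si-CENPU, and 50.1% higher and 22.9% lower with si-NC. Counts under trimmed-mean scaling are read against 3653 of 11088 genes higher and 3894 lower with si-CENPU. With si-NC that scaling gave 3742 higher and 3881 lower. The HIF pathway components were mixed, with 4 higher and 3 lower in MHCC-97H with si-CENPU and 6 higher and 2 lower with si-NC, or 1 higher and 7 lower, and 4 higher and 5 lower, under trimmed-mean scaling. ARNT, the stable partner of HIF1A, was higher in MHCC-97H by 1.70 with si-CENPU and 1.67 with si-NC, and was listed at 0 to 0.95 TPM in Huh-7. RBX1, a subunit of the ubiquitin ligase that acts on HIF1A, was lower in MHCC-97H by log2 differences of -1.5 with si-CENPU and -1.07 with si-NC. ELOC, another subunit of that ligase, was higher by 1.20 with si-NC. Of the 21 other hypoxia-induced genes, 9 were higher and 3 lower in MHCC-97H with si-CENPU, and 11 higher and 3 lower with si-NC, or 6 and 6, and 8 and 7, under that scaling. These shares of higher genes are near the background. IGFBP3, a binding protein of insulin-like growth factors, was higher by 2.30 with si-CENPU and 2.71 with si-NC, whereas ANGPTL4, an inhibitor of lipoprotein lipase, was lower at -2.37 and -2.11. Of the 6 other glycolytic isoforms, 2 were higher and 2 lower in MHCC-97H with either siRNA, or 1 higher and 3 lower with si-CENPU and 1 higher and 4 lower with si-NC under trimmed-mean scaling. SLC2A8 had the largest difference among the lower, at -2.38 with si-CENPU and -2.48 with si-NC. HKDC1, a further hexokinase, lay between 9.33 and 18.3 TPM in MHCC-97H and between 0.01 and 0.27 TPM in Huh-7. Of the 6 other flux regulators, 4 were higher and 2 lower with either siRNA, as deposited and under trimmed-mean scaling. MPC2, a subunit of the mitochondrial pyruvate carrier, was lower in MHCC-97H at -2.65 with si-CENPU and -2.19 with si-NC, and its partner MPC1 was lower at -1.70 and -1.28 in the same comparisons. PDHA1, a subunit of pyruvate dehydrogenase, was higher by 2.51 with si-CENPU and 2.30 with si-NC, and PDK2, one of the kinases that inhibit it, by 1.94 with si-CENPU and 2.31 with si-NC.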

How the data were processed

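RNA of 12 libraries was sequenced. TPM values were deposited by the authors as 1 table with a column per sample, made with HISAT2 and StringTie for build GRCh38.p13, per the submitters' processing notes. Versions, annotation and strandedness were not given there, so a gene and an overlapping or antisense neighbour may share reads. TPM keeps no depth, so no counting interval is given. Groups and replicate numbers came from the sample titles. Coordinates and GC content came from GENCODE release 29.

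Values were taken as log2(TPM + 1), and the 11088 genes with a mean of at least 1 TPM were fitted with limma 3.58.1 in R 4.3.3, with 1 mean per group, empirical Bayes moderation with a trend, and two-sided p-values adjusted by Benjamini-Hochberg within each contrast. A gene counted as called at an adjusted p under 0.05, higher or lower by its sign. Members under the filter had exact permutation tests. The fit was tested on simulated data. The members and lists were chosen with earlier results of these data known. Every library's value is given for members with the largest difference or smallest p per role in each line, and for those called between lines at 1 log2 unit or more in both comparisons; of each other list, the 2 called genes with the largest difference in each comparison are named, and SLC2A6, MPC1 and the bile duct markers were named after their values were seen. Alternatives were other pseudocounts, filters and scalings, a GC correction, the replicate number as a block, and leaving out each library; the filter within each line and the average of both lines were added after the data were seen. Trimmed-mean scaling used unweighted log ratios, since TPM holds no counts, a form set after a weighted one had been run on these data. The upstream sequences shown were chosen after the values and motif matches had been seen. Plots used Python 3.11.15 and matplotlib 3.10.9.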

Additional observations from a re-analysis of the deposited data

How the results depend on the processing

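No member was called after si-CENPU in MHCC-97H or Huh-7, or for the difference between them, under any of the alternatives run, and the members called between the lines numbered 18 to 28 with si-CENPU and 19 to 28 with si-NC. Over all tested genes, 1 was called in MHCC-97H, 1 in Huh-7 and 1 for the difference of responses. In MHCC-97H that count was 0 with a pseudocount of 0.1, in a fit of its 6 samples alone, with the replicate block, with the GC correction, with both, and without a trend, 7 without a filter, 7 under trimmed-mean scaling, 7 under quantile normalization, and 0 to 4 when libraries were left out. In Huh-7 it was 11 with a pseudocount of 0.1, 4 without a filter, 0 at a mean of 5 TPM, 2 under trimmed-mean scaling, 3 under quantile normalization, 0 in a fit of its 6 samples alone, 0 with the filter in each line, and 0 to 4 when libraries were left out. For the difference it was 6 without a filter, 2 under trimmed-mean scaling, and 0 with a pseudocount of 0.1 or 0.5, at a mean of 5 TPM, rescaled without the most abundant genes, with the replicate block, and with the filter in each line, and 0 to 4 when libraries were left out. Between the lines, all-gene calls fell to 4282 with si-CENPU and 4405 with si-NC at a mean of 5 TPM, and to 4984 and 5258 with the filter in each line. Fewer genes were tested under both filters, 8005 with the filter in each line. The cause of these changes was not tested. Same-numbered si-CENPU and si-NC libraries had deviations that correlated between -0.0914 and 0.134, the highest being replicate 3 of MHCC-97H. Libraries with unlike numbers correlated between -0.116 and 0.157. With so few libraries these values can neither show nor exclude pairing by number. Whether the numbers mark shared batches is not stated in the labels. With the replicate block 0 members were called.

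PFKFB4 in MHCC-97H reversed to 0.0083 under trimmed-mean scaling and to 0.028 under quantile normalization, and ran from -0.17 to 0.062 when libraries were left out. The other ranges that crossed 0 were -0.019 to 0.29 for ALDOC in Huh-7, -0.24 to 0.046 for SLC2A3 in MHCC-97H, -0.28 to 0.044 for PKM in MHCC-97H, and, for the members under the filter, in MHCC-97H -0.18 to 0.0086 for PDK1 and -0.18 to 0.016 for EGLN3, and in Huh-7 -0.013 to 0.12 for SLC2A2, -0.26 to 0.20 for PDK1, -0.17 to 0.18 for CA9 and -0.068 to 0.042 for EGLN3. With 1 TPM added to each gene, the share of HK1 in HK1 and HK2 was 86.1% and 85.6% in MHCC-97H with si-CENPU and si-NC, and 29.8% and 31.2% in Huh-7. The share of PFKP in Huh-7 was then 3.30% and 3.31%, and that of LDHB in Huh-7 was 4.99% and 4.14%. The values near 0 in Huh-7 limit these shares, and their depth is unknown.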

Other observations

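No gene of the pathways that branch from glycolysis was called after si-CENPU in either line, where 0.00902% of all genes were, so that this is near the background. Between the lines, 46.2% of all genes were higher and 23.9% lower in MHCC-97H with si-CENPU, and 50.1% higher and 22.9% lower with si-NC, on the deposited scale. Under trimmed-mean scaling 3653 of 11088 genes were higher and 3894 lower with si-CENPU, and 3742 higher and 3881 lower with si-NC. Of 5 tested genes of gluconeogenesis, the route from pyruvate back to glucose, 1 was higher and 4 were lower in MHCC-97H than in Huh-7 with either siRNA, and 4 were lower and 0 higher under trimmed-mean scaling. PC, pyruvate carboxylase, lay between 3.65 and 6.35 TPM in MHCC-97H and between 21.8 and 29.9 TPM in Huh-7, with log2 differences of -2.05 with si-CENPU and -2.30 with si-NC (limma adjusted p = 9.13e-07 and 3.35e-07). PCK2, the mitochondrial phosphoenolpyruvate carboxykinase, lay between 13.9 and 18.5 TPM in MHCC-97H and between 56.0 and 65.6 TPM in Huh-7.

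Of 8 tested genes of the pentose phosphate pathway, 4 were higher and 1 lower in MHCC-97H with si-CENPU, and 5 higher and 2 lower with si-NC, or 3 and 3, and 4 and 3, under trimmed-mean scaling. The counts on the deposited scale are near the shares over all genes. TKT, transketolase of the non-oxidative branch, lay between 254 and 326 TPM in MHCC-97H and between 17.9 and 27.5 TPM in Huh-7. PGD, the dehydrogenase of the oxidative branch, lay between 9.06 and 14.4 TPM in MHCC-97H and between 45.0 and 70.9 TPM in Huh-7. Of 7 tested genes of glycogen metabolism, 5 were higher in MHCC-97H with si-CENPU and 4 with si-NC, or 3 higher and 1 lower, and 4 higher and 2 lower, under that scaling. Among the higher was GYS1, the glycogen synthase of muscle, between 14.4 and 18.9 TPM in MHCC-97H and between 5.56 and 7.93 TPM in Huh-7. PHKA2, a subunit of phosphorylase kinase, was higher by 0.85 with si-CENPU and 1.33 with si-NC.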
